A study of Mus musculus with 10 samples.

Results

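The Src family of tyrosine kinases and the 2 kinases that restrain it, Csk and Matk, were examined in mouse peritoneal macrophages. The 8 genes were Matk, Csk, Src, Lyn, Fgr, Fyn, Lck and Yes1, of 39488 rows in the deposited table, of which 29700 were not circular RNAs. The list was written by name, and Matk was put on it because it was chosen by its measured difference between the groups in these same libraries. The difference in Matk is therefore given below as a description without a test, whereas the other 7 genes were listed as relatives of Matk. Blk, a relative of Src in white blood cells, was not on the list and is given beside it.

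Bulk RNA-seq was carried out on total RNA of peritoneal macrophages from C57BL/6 mice aged 8 weeks, with 5 control and 5 ox-LDL libraries. By their labels the control cells had no treatment. The ox-LDL cells received lipopolysaccharide (LPS), a bacterial cell wall product, at 100 ng/ml and after it oxidized low-density lipoprotein (ox-LDL), the lipid particle taken up by macrophages in atherosclerotic plaques, at 100 µg/ml for 16 h. By these labels a difference between the groups holds the effects of LPS and ox-LDL together, and the paper can also be read as giving LPS to both groups, which is not settled. The macrophages were elicited with thioglycollate per the methods of the study, and no source used here says whether the numbered libraries came from separate mice or cultures, so p-values measure the spread between these libraries, which may be technical.

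Src family kinases sit on the inner face of the cell membrane and pass on signals from Fc receptors, integrins and inhibitory receptors by phosphorylating tyrosines. Each has a tyrosine near its tail which, once phosphorylated, folds the kinase into a closed and inactive form. Csk, found in most cells, phosphorylates this tail, and Matk, a relative of Csk known from blood cells and brain, can do the same. Lyn and Fgr are well known from macrophages, Src and Fyn are found in many tissues, and Lck is known for its role at the T cell receptor.

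Depth was nearly even, at 19257131 to 20687289 counts per library. The libraries nevertheless differed in make-up: ox-LDL replicate 2 had the lowest TMM factor (0.593, against 0.837 to 1.19 in the other 9), where TMM is the edgeR scaling that removes differences in composition. In control replicates 1 and 4 and ox-LDL replicate 2 the deviation of a gene from the mean of its group fell with gene length (Spearman rho over genes of -0.57, -0.46 and -0.64), whereas in ox-LDL replicate 5 it was near level (0.06) and in the other 6 it rose (0.31 to 0.51). The part of these library differences in the results was not tested beyond the fits without single libraries and with the length trend removed. All 8 macrophage markers read here passed the filter on low counts, with a sum of 23168 to 42854 CPM (counts scaled to a common library size, here by the library total) in control and 13363 to 28376 in ox-LDL libraries. Lyz2, the lysozyme gene, made up most of this sum, with a mean of 28733 in the controls and 14306 after LPS and ox-LDL. In bulk RNA, fewer cells of a type and less RNA per cell cannot be told apart.

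Matk is shown first because it had the largest difference of the 8 genes. The gene (NCBI Gene 17179) lies on the plus strand at chr10:80715680-80726110 of the mouse build NCBIM37 (mm9), and 2 transcription start sites are listed for it in RefSeq. The 250 bases before each start were taken from RefSeq (table of GRCm38.p6) and found once each on the plus strand of chr10 in NCBIM37. Other chromosomes were not searched. They are printed 5′ to 3′ on the plus strand, with capitals marking the letters GAGGAA of an ETS-type motif. The first window, chr10:80715430-80715679, overlaps no annotated transcript. The second, chr10:80719794-80720043, lies in an intron of 1 transcript.
Matk promoter 1: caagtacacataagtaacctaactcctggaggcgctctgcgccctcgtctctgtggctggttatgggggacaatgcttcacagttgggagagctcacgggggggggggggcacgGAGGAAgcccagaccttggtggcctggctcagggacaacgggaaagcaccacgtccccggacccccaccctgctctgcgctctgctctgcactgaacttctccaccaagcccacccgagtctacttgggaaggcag
Matk promoter 2: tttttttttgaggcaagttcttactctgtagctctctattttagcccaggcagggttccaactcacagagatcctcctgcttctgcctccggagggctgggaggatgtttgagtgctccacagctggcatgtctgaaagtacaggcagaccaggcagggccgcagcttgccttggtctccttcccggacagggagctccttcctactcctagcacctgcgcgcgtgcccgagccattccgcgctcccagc

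Both windows were searched on both strands for the AP-1 motif TGANTCA, held by 6.75% of 32851 RefSeq windows of the same length, and for the ETS core GAGGAA, held by 23.3%. The only match in them was the ETS core in the first window, at position -136 from the start. The windows had a GC content of 62.4% and 58.0% and held 10 and 9 CpG, against medians of 52.4% and 6 over all windows. The window before the Src start at chr2:157249779-157250028 was richer still, with a GC content of 82.8% and 40 CpG, a number reached by 1.31% of windows. It held the same ETS core once, on the other strand, at position -108. The window overlaps annotated exons of Src and is not printed.

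Matk was abundant in control macrophages and nearly absent after LPS and ox-LDL. Its level, in TMM-normalized CPM, was 59.6, 61.9, 58.5, 65.5 and 45.5 in control replicates 1 to 5 and 1.65, 0.942, 0.488, 1.00 and 0.597 in ox-LDL replicates 1 to 5. Every ox-LDL library lay far below every control library, and these levels rest on 1047 to 1447 reads per control library and 10 to 38 reads per ox-LDL library. The mean was 58.2 ± 7.60 (SD, n = 5) in control and 0.937 ± 0.457 (SD, n = 5) in ox-LDL libraries, which is 62.1-fold lower. The edgeR log2 fold change was -5.93 (SE 0.32), and only 4 of the 12654 genes tested, Matk included, had a value this low or lower (0.0316%). Leaving out any 1 library gave -6.26 to -5.76.

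**Figure D1:**
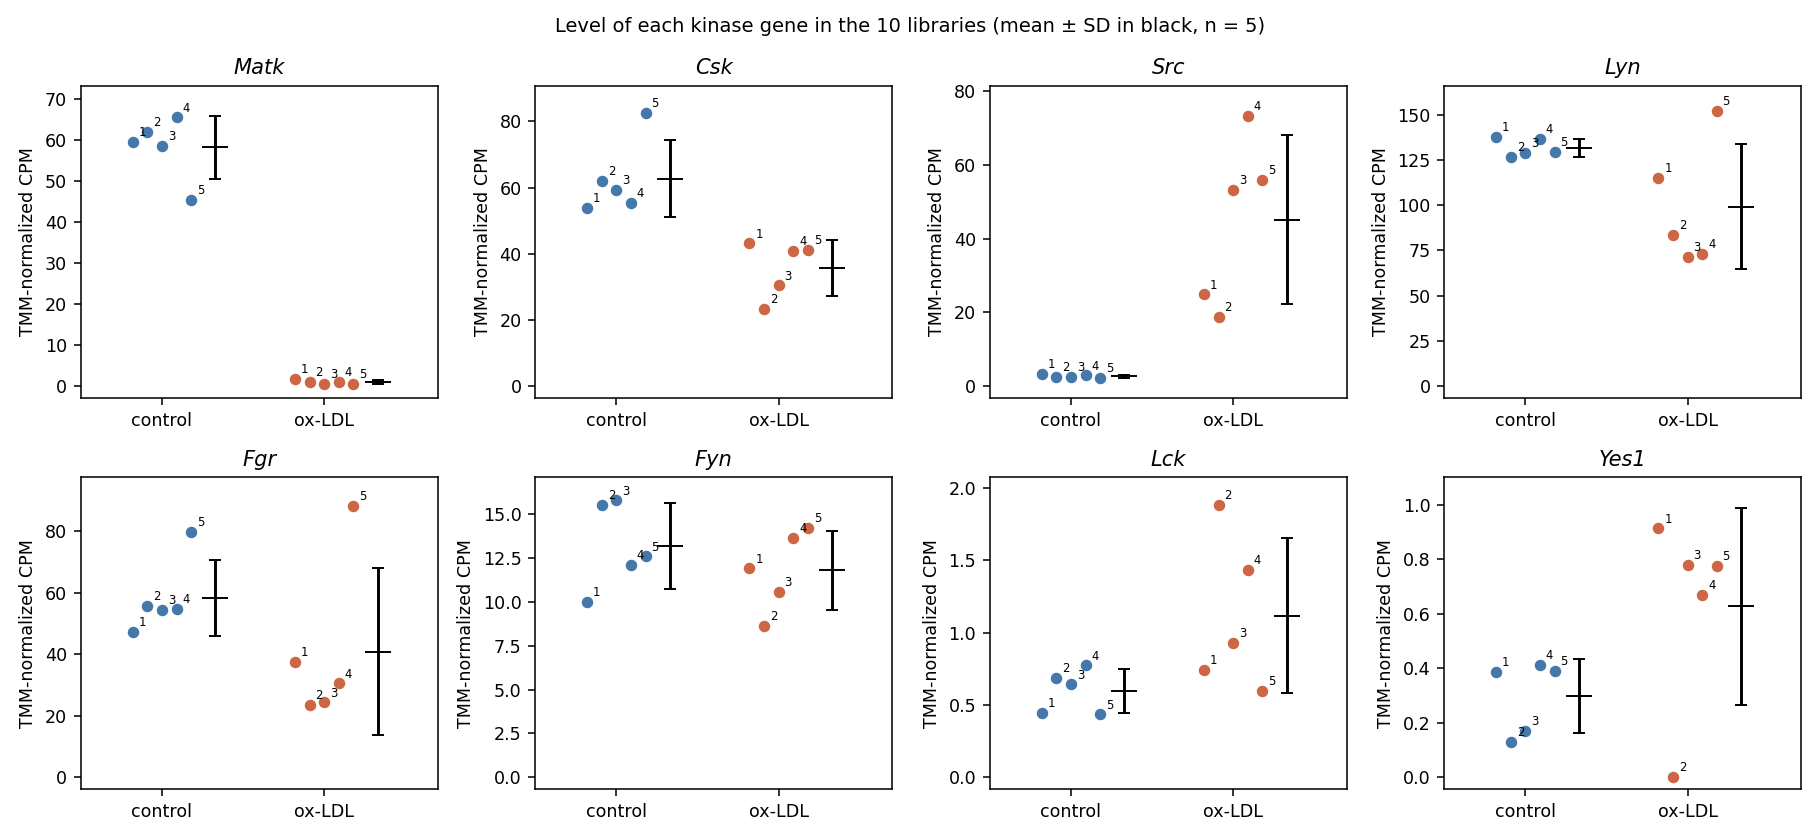
TMM-normalized CPM (y axis, linear, a separate scale for each gene) of the 8 genes in each control (blue) and ox-LDL (orange) library, numbered by replicate, with the mean ± SD of 5 libraries in black. Matk and Csk lie lower in all 5 ox-LDL libraries and Src higher, while the groups overlap in the other 5 panels.

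Csk, the main kinase of the inhibitory tail (NCBI Gene 12988, minus strand, chr9:57474454-57493460), was lower in every ox-LDL library in TMM-normalized CPM, by a far smaller margin. Its CPM was 53.8, 61.9, 59.4, 55.5 and 82.7 in the control libraries and 43.1, 23.3, 30.4, 40.8 and 41.1 in the ox-LDL libraries. On this scale the groups did not overlap, although control replicate 5 stood well above the other 4 controls and ox-LDL replicate 2 was the lowest of all. In FPKM, a value scaled by gene length and library total, they did overlap, with 19.7 in ox-LDL replicate 1 and 18.7 in control replicate 1. The mean CPM was 62.6 ± 11.6 and 35.8 ± 8.55 (SD, n = 5 each), 1.75-fold lower. The log2 fold change was -0.81 (SE 0.21), with an adjusted p of 0.0135 by edgeR's quasi-likelihood test with Benjamini-Hochberg adjustment, which misses the threshold of 0.01. Without ox-LDL replicate 2 the log2 fold change was -0.73 and the adjusted p was 0.00501, and without both ox-LDL replicate 2 and control replicate 5 they were -0.59 and 0.00935. Leaving out any 1 of the other 9 libraries kept the adjusted p above the threshold, at 0.0117 to 0.0419, and 18 of the 23 alternative settings did not call Csk.

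Src, the founding member of the family (NCBI Gene 20779, plus strand, chr2:157244180-157297598), went the other way. Its CPM was 3.21, 2.52, 2.57, 2.88 and 2.13 in the control libraries and 24.9, 18.8, 53.2, 73.3 and 56.0 in the ox-LDL libraries. The lowest ox-LDL library thus lay several times above the highest control, and ox-LDL replicates 3, 4 and 5 lay above replicates 1 and 2. The means were 2.66 ± 0.406 and 45.2 ± 22.8 (SD, n = 5 each), a 17.0-fold rise on 49 to 60 reads per control and 219 to 1533 reads per ox-LDL library. The log2 fold change was 4.09 (SE 0.38) with an adjusted p of 2.74e-05 (edgeR quasi-likelihood, Benjamini-Hochberg), and 178 of the genes tested (1.41%) had a log2 fold change at least as high. Without any 1 library it was 3.85 to 4.24, and Src passed the threshold in all 23 alternative settings.

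Of the 6 genes other than Matk that could be tested, 1 (Src) was called higher at an adjusted p below 0.01, against 9.4% of all 12654 genes, and 0 were called lower, against 5.35%. On log2(FPKM + 1) the split over all genes turned from 1189 higher and 677 lower to 570 higher and 769 lower. At an unadjusted p below 0.05 by edgeR 2 of the 6 were higher (Src and Lck) and 1 was lower (Csk). DESeq2 called 1 lower (Csk) and limma-voom 0. In TMM-normalized CPM, Src was the 1 gene of the 6 without overlap upwards, against 11.6% of all genes, and Csk the 1 without overlap downwards, against 9.11%.

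Lyn (NCBI Gene 17096, chr4:3605262-3740269, plus strand), which serves both activating and inhibitory receptors of myeloid cells, was per length the most abundant of the 8 genes in all 10 libraries. Its CPM was 138, 127, 129, 136 and 129 in the control libraries and 115, 83.6, 71.4, 73.2 and 152 in the ox-LDL libraries. The controls were tightly grouped, whereas 4 ox-LDL libraries lay below all of them and replicate 5 lay above. The log2 fold change was -0.41 (SE 0.23, adjusted p = 0.204, edgeR). Without ox-LDL replicate 5 it was -0.63, with an adjusted p of 0.0313.

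Fgr (NCBI Gene 14191, chr4:132530010-132557825, plus strand), a kinase of neutrophils and macrophages that acts below integrins, had the same layout of libraries. Its CPM was 47.3, 55.9, 54.4, 54.7 and 79.8 in control and 37.5, 23.6, 24.3, 30.5 and 88.4 in ox-LDL libraries. Again 4 ox-LDL libraries lay below every control and replicate 5 lay above every control, while control replicate 5 was the highest of its group. The log2 fold change was -0.52 (SE 0.35, adjusted p = 0.302, edgeR), and without ox-LDL replicate 5 it was -1.02 with an adjusted p of 0.00472. The call for Fgr thus turned on this 1 library. Control replicate 5 and ox-LDL replicate 5 also had the highest neutrophil marker sum of their groups (136 and 201 CPM by library size), and its part in the Fgr values was not tested. That sum was mostly Csf3r, S100a8 and Mmp8, while S100a9, Retnlg, Ngp and Camp had at most 41 reads per library.

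Fyn (NCBI Gene 14360, chr10:39088661-39285187, plus strand), a widely expressed kinase, had overlapping groups. Its CPM was 10.0, 15.5, 15.8, 12.1 and 12.6 in control and 11.9, 8.65, 10.6, 13.6 and 14.2 in ox-LDL libraries, and the log2 fold change of -0.16 (SE 0.20, adjusted p = 0.591, edgeR) was smaller than its error. Lck (NCBI Gene 16818, chr4:129225588-129250885, minus strand) was at the edge of detection, with 0.434 to 0.773 CPM in control and 0.597 to 1.88 CPM in ox-LDL libraries, or 8 to 16 and 10 to 30 reads. Its log2 fold change was 0.88 (SE 0.38, adjusted p = 0.109, edgeR), and 3 of 5 ox-LDL libraries lay above every control. Yes1 (NCBI Gene 22612, chr5:32913606-32989430, plus strand), a widely expressed kinase close to Src in sequence, was too low for the fit. It had 3 to 9 reads per control library and 0 to 21 per ox-LDL library, where 4 libraries lay above all controls and replicate 2 had none (two-sided exact permutation test on log2(CPM + 0.5), p = 0.167, where the smallest p that 5 against 5 libraries can give is 0.00794). In the annotation, genes on the opposite strand overlap Lyn (4), Fyn (3) and Yes1 (1). Whether the counting used strand is not given in the sources used here, so reads of these neighbours cannot be told apart from those of the kinases. Blk, known from B cells, had at most 4 reads in any library.

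**Figure D2:**
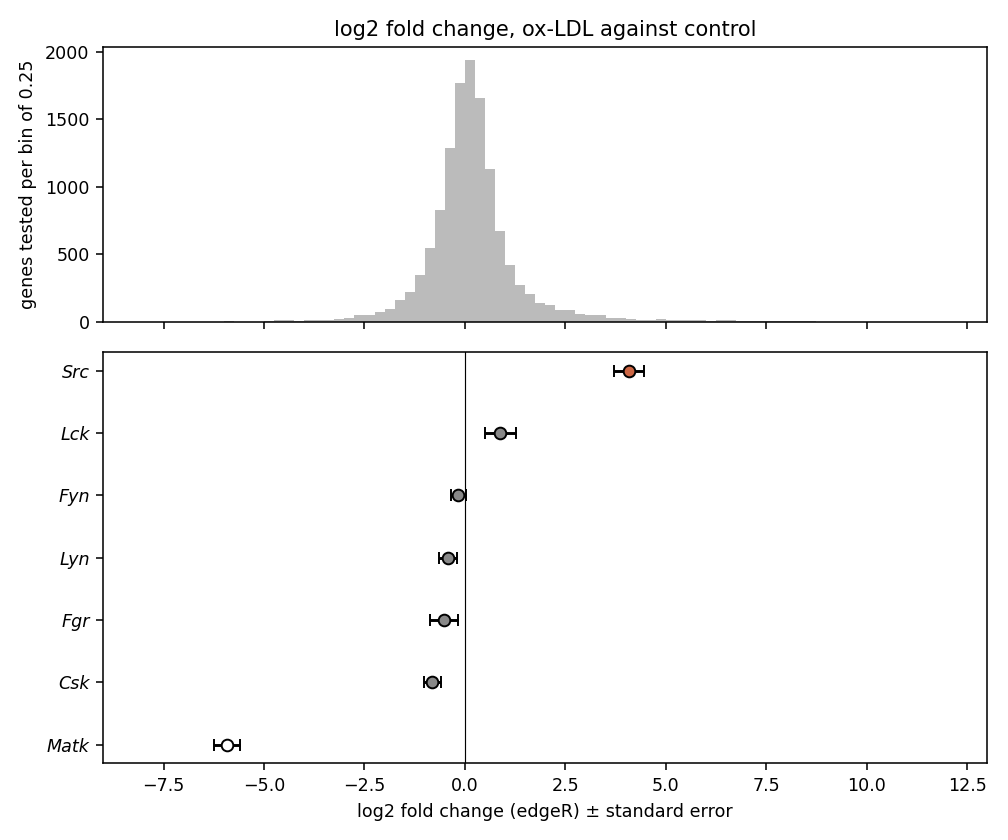
Log2 fold change of ox-LDL against control by edgeR, on one x axis: above, the number of genes tested per bin of 0.25 (12654 genes), and below, each kinase gene with its standard error. Orange marks an adjusted p below 0.01 (Src, 4.09), grey marks genes that miss it, and the open point is Matk (-5.93), which was not tested.

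Levels of different genes were compared per length, as FPKM (fragments per length of transcript and per total of reads). In the control libraries Lyn (46.9 ± 3.68 FPKM) led, followed by Matk (35.8 ± 4.91), Csk (25.9 ± 6.85), Fgr (19.8 ± 5.66), Fyn (4.33 ± 1.28) and Src (0.758 ± 0.0626; SD, n = 5 each). The means of Csk and Fgr lay within their spread over libraries, although Csk was the higher of the pair in each of the 5 controls. Matk exceeded Csk in 4 of 5 controls, and in control replicate 5 Csk was the higher, at 36.2 against 30.2 FPKM. In the ox-LDL libraries Lyn (31.2 ± 12.4 FPKM) still led, followed by Csk (13.6 ± 5.50), Src (12.0 ± 7.15) and Fgr (12.0 ± 7.10), whose means lay within their spread and whose order changed between libraries, then Fyn (3.53 ± 1.26). Matk came after these, at 0.502 ± 0.353 FPKM, beside Lck at 0.526 ± 0.196. Src moved from below Fyn in every control library to rank 2 among the 8 genes in ox-LDL replicates 3 and 4 and rank 4 in the other 3 ox-LDL libraries.

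**Figure D3:**
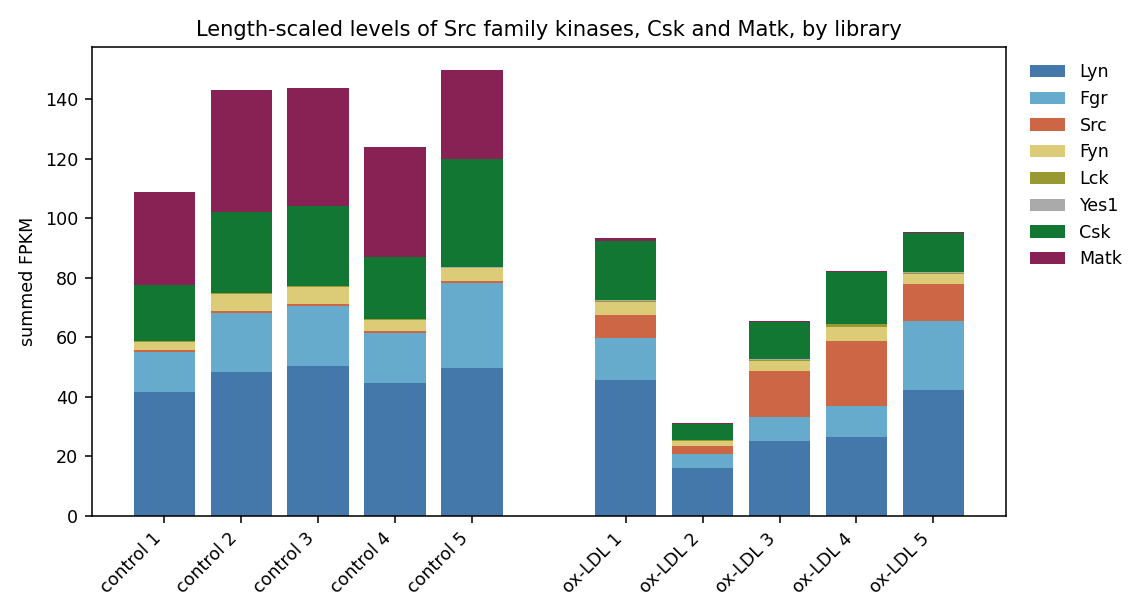
FPKM of the 8 kinase genes stacked for each of the 10 libraries (x axis), from Lyn at the base to Matk at the top, in the colours of the legend. The Matk segment, 30.2 to 41.0 FPKM in control libraries, shrinks to at most 1.10 FPKM in ox-LDL libraries, where the Src segment is 2.85 to 21.7 FPKM.

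The balance of kinases within a library does not depend on how libraries are scaled to one another, and was described without a test. The 6 Src family genes on the list together reached 58.8 to 83.5 FPKM in control and 25.6 to 81.8 FPKM in ox-LDL libraries, with overlapping groups. Csk and Matk together came to 49.9 to 68.1 FPKM in control but 5.56 to 20.8 FPKM in ox-LDL libraries, with no overlap. The first sum was thus 1.10 to 1.26 times the second in the controls and 3.49 to 6.07 times in the ox-LDL libraries (mean 1.17 ± 0.0576 and 4.39 ± 1.04, SD, n = 5 each).

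Matk was listed for its fall in these libraries, so the size of every ratio that holds it follows in part from that choice. Measured against Csk alone, the Src family sum was 2.30 to 3.19 times as high in control and 3.69 to 6.20 times in ox-LDL libraries, whereas against Matk alone it was 1.79 to 2.77 and 65.9 to 282 times as high. Matk made up 62.5%, 60.2%, 59.8%, 64.1% and 45.4% of the Csk and Matk sum in control replicates 1 to 5, and 2.13% to 5.40% in the ox-LDL libraries. Within the Src family sum, Src itself took 0.779% to 1.33% in control libraries and 10.9%, 11.1%, 28.8%, 33.6% and 15.2% in ox-LDL replicates 1 to 5. Lyn took 59.3% to 70.7% and 41.0% to 63.4%, so the groups overlapped for Lyn and not for Src. These are shares of RNA, and kinase protein or activity was not measured in these libraries.

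**Figure D4:**
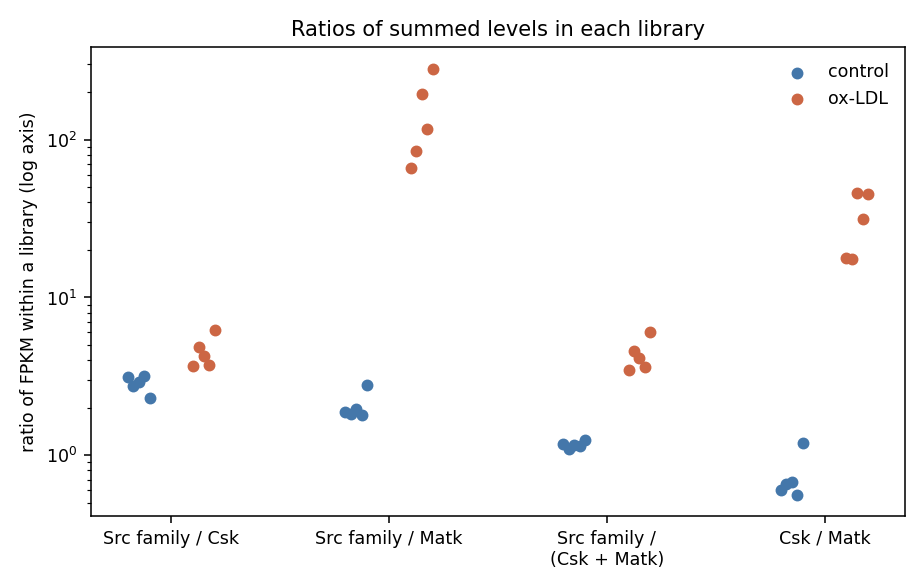
Ratios of FPKM within each control (blue) and ox-LDL (orange) library on a log y axis, for the summed Src family (Src, Lyn, Fgr, Fyn, Lck and Yes1) over Csk, over Matk and over both, and for Csk over Matk. The groups are separate in all 4 ratios, most widely in those with Matk as the denominator, and control replicate 5 has the highest Csk over Matk of its group (1.20).

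The proteins that bind, oppose or are used by these kinases were read from 6 lists of 73 genes written by hand with earlier results of these data known. Of the 63 that could be tested, 4 were called higher and 8 lower, against 9.4% and 5.35% of all genes, and their median log2 fold change was -0.0044 against 0.10 for all genes tested. Siglece, among the 4, passed the filter on low counts through the ox-LDL libraries alone, and no result is read from its call. DESeq2 called 11 higher and 13 lower, and without ox-LDL replicate 2 edgeR called 13 and 15. Among proteins that anchor or accompany Csk, 1 of 11 tested rose and 2 fell (median 0.18), against 3 and 3 at an unadjusted p below 0.05, 2 and 3 by DESeq2 and 1 and 3 by limma-voom. Pag1, the membrane protein that draws Csk to lipid rafts, rose from 9.24 ± 2.51 to 22.9 ± 5.83 CPM (log2 fold change 1.31, SE 0.25, adjusted p = 0.00253, edgeR), a call lost in 4 of the 23 alternatives, with adjusted p up to 0.202. Ptpn22, a phosphatase that partners Csk, fell from 21.5 ± 0.830 to 3.44 ± 4.07 CPM (-2.62, SE 0.57, adjusted p = 0.00505), and ox-LDL replicate 1, at 10.7 CPM, was the highest of its group. Without that library the log2 fold change was -3.70 (adjusted p = 1.31e-05), whereas the call was lost in 10 alternatives (adjusted p 0.0101 to 0.0233), among them the removal of any 1 control or of ox-LDL replicate 3 or 4. Dok2, an adaptor that damps tyrosine kinase signals, fell from 105 ± 14.1 to 20.3 ± 5.23 CPM (-2.37, SE 0.22, adjusted p = 2.63e-05).

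Of the 7 phosphatases able to act on the tail or its partners, among them Ptprc (CD45) and Ptpn6 (SHP-1), none was called by edgeR (median 0.06). Over all genes tested, 9.4% were called higher and 5.35% lower. At an unadjusted p below 0.05, 0 were higher and 2 lower, DESeq2 called 0 higher and 1 lower, and limma-voom called none. Among 3 related cytoplasmic tyrosine kinases tested, Fes, a kinase of myeloid cells, fell from 54.6 ± 2.86 to 20.6 ± 6.09 CPM (-1.40, SE 0.21, adjusted p = 5.22e-04, edgeR). None of the 3 was called higher by edgeR or limma-voom, 1 was higher at an unadjusted p below 0.05, and DESeq2 called 1 higher. By each of these criteria 1 was lower.

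Of 18 genes that carry signals from immunoreceptors, 1 rose and 2 fell (median -0.09), next to 9.4% and 5.35% of all genes. At an unadjusted p below 0.05, 3 were higher and 7 lower, DESeq2 called 3 and 4, and limma-voom 1 and 1. Lcp2, the adaptor SLP-76, rose from 36.5 ± 8.08 to 180 ± 60.1 CPM (log2 fold change 2.30, SE 0.26, adjusted p = 8.85e-05, edgeR). The membrane adaptor Lat fell from 33.4 ± 18.2 to 7.29 ± 2.99 CPM (-2.19, SE 0.48, adjusted p = 0.00518), although 1 control library at 6.73 CPM lay within the ox-LDL range of 4.30 to 11.0, and the call was lost in 9 alternatives, with adjusted p up to 0.0165, including those without any 1 of control replicates 1 to 4 or ox-LDL replicates 1, 3 and 5. The kinase Tec fell from 104 ± 5.59 to 50.1 ± 7.13 CPM (-1.06, SE 0.16, adjusted p = 5.00e-04). Syk, the kinase that docks on receptors marked by the Src family, had 144 ± 57.3 and 301 ± 105 CPM, with an adjusted p of 0.0278.

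Of 13 adhesion and cytoskeletal genes, none was called higher by edgeR or limma-voom and 1 was called lower (median 0.48). Over all genes tested, edgeR called 9.4% higher and 5.35% lower, with a median of 0.10. At an unadjusted p below 0.05, 4 were higher and 2 lower, and DESeq2 called 2 higher and 2 lower. Dock2, an activator of the GTPase Rac, fell from 166 ± 29.1 to 41.7 ± 18.0 CPM (-1.99, SE 0.29, adjusted p = 4.49e-04, edgeR). As a class, inhibitory receptors have tails that are marked by Src family kinases in the course of signalling. Whether each gene listed here acts in this way in the mouse was not examined. Of 11 genes listed as such receptors, 2 were called higher and 2 lower (median -0.14), to be read beside the same shares of all genes. The counts were 4 and 3 at an unadjusted p below 0.05, 3 and 2 by DESeq2 and 2 and 2 by limma-voom. Cd33, a sialic acid-binding receptor, rose from 22.3 ± 6.11 to 74.6 ± 18.8 CPM (1.74, SE 0.24, adjusted p = 3.36e-04). Siglece, a receptor of the same kind, had 0.257 to 0.348 CPM in control, at most 8 reads per library, and 8.91 to 25.8 CPM in ox-LDL libraries. It passed the filter on low counts through the ox-LDL libraries alone. Its call stays in the counts, but no result is read from it and its fold change is left out of the text. Lair1, a collagen receptor, fell from 156 ± 44.7 to 55.1 ± 9.73 CPM (-1.50, SE 0.22, adjusted p = 5.27e-04). Cd200r1, the receptor of CD200, fell from 215 ± 71.1 to 61.4 ± 33.9 CPM (-1.81, SE 0.39, adjusted p = 0.00511), a call lost without any 1 of control replicates 1 to 4 or ox-LDL replicates 3 to 5, with adjusted p up to 0.0185.

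**Figure D5:**
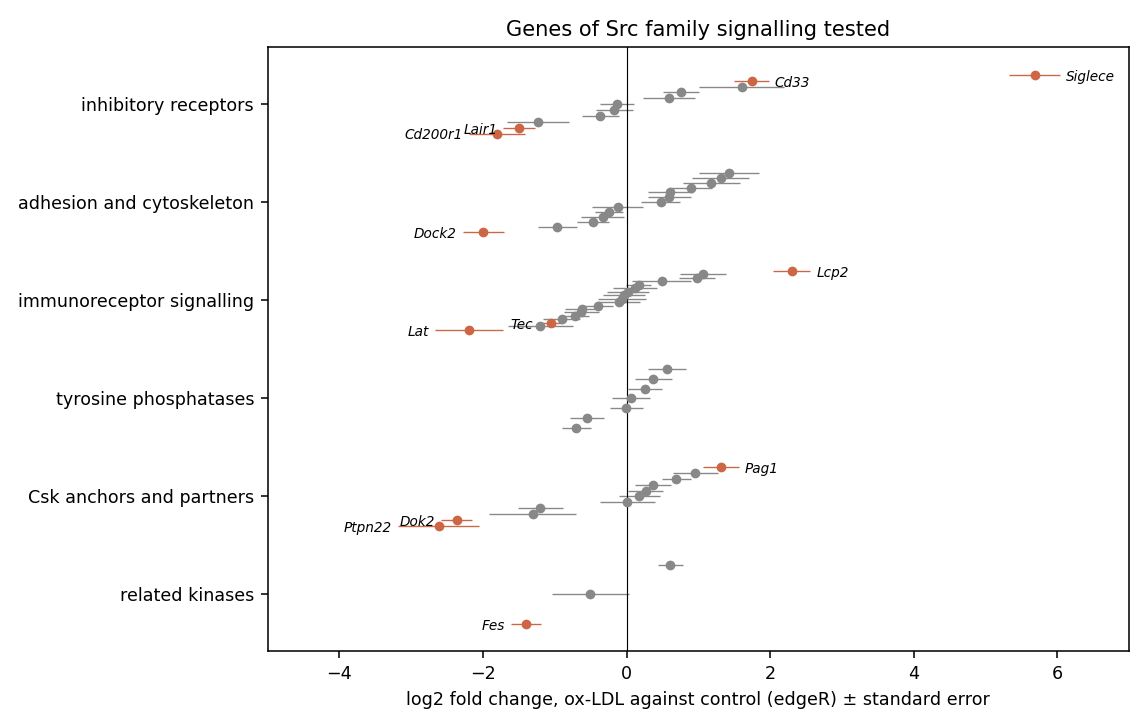
Log2 fold change of ox-LDL against control with its standard error (x axis) for the 63 tested genes of the 6 lists, a row of points per list. The 12 genes with an adjusted p below 0.01 are orange and named, and the other 51 are grey. Siglece, among the 12, passed the filter on low counts through the ox-LDL libraries alone, and no result is read from its point.

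T and NK cell markers were low in both groups. The 11 T cell markers summed to 0.937 to 2.20 CPM by library size in control and 0.760 to 2.82 in ox-LDL libraries, and 0 of 11 passed the filter. Cd3e had at most 1 read, Cd4 at most 19 per control and 7 per ox-LDL library, and Cd247 at most 5 and 41. The 6 NK cell markers summed to 0.254 to 1.10 and 0.0522 to 0.699 CPM, with 0 of 6 passing. Matk had 52.4 to 71.3 CPM by library size in the controls, and the part of T and NK cells in the Matk values was not tested. Among 7 megakaryocyte and platelet markers, Pf4, which macrophages also make, was the 1 that passed. Its log2 fold change was 2.45 (adjusted p = 0.0094, edgeR), although the groups overlapped, at 26.1 to 71.6 CPM in control and 51.2 to 583 CPM in ox-LDL libraries. Gp9 had no read in any library. The sum of the 7, nearly all of it Pf4, was 24.2 to 70.7 CPM in control and 61.4 to 346 CPM in ox-LDL libraries, and the other 6 had at most 11 reads per library. The part of megakaryocytes or platelets in the Matk values was not tested.

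Markers of other cells ranged from a few CPM to levels like those of the kinases. Calls among them are to be read beside the 9.4% of all genes called higher and 5.35% called lower. B cell markers summed to 1.73 to 3.50 CPM in control and 0.899 to 4.35 in ox-LDL libraries, with 2 of 7 passing the filter. Neutrophil markers summed to 59.5 to 136 and 79.0 to 201 CPM, with 1 of 3 tested (S100a8) called higher. Mast cell and eosinophil markers summed to 3.20 to 11.6 and 0.730 to 3.10 CPM, with 1 of 3 tested (Siglecf) called lower. Siglecf had at most 132 reads per control and 12 per ox-LDL library. It passed the filter through the control libraries alone, so no result is read from its call. Dendritic cell markers summed to 1.53 to 2.74 and 2.23 to 4.04 CPM, and markers of resident macrophages to 5.36 to 10.4 and 2.94 to 6.94 CPM. In these 2 lists 1 of 2 tested (Clec9a) and 1 of 3 tested (Timd4) were called higher. Clec9a and Timd4 had at most 11 and 5 reads per control library. They passed the filter through the ox-LDL libraries alone, so no result is read from their calls. Among the other resident macrophage markers, Icam2 had 4.82 ± 1.58 and 1.96 ± 0.811 CPM (adjusted p = 0.014, edgeR). Selp, too low for the fit, had at most 33 reads per control and 3 per ox-LDL library. Mesothelial and stromal markers summed to 16.2 to 57.5 CPM in control and 65.7 to 176 CPM in ox-LDL libraries, and 3 of 5 tested (Col1a1, Col1a2 and Dcn) were called higher. Most of this sum came from Dcn, Col1a1, Col1a2 and Pdgfra. The mesothelial markers Msln, Upk3b, Krt19 and Wt1 had at most 56 reads per library. The sum of this last list was higher along with Src, a kinase of many tissues, and its part in the Src result was not tested. Of the 8 macrophage markers read, 2 (Adgre1 and Cd14) were called higher and 0 lower.

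The genes whose levels ran most like that of Matk over the 10 libraries were sought among 8109 genes with at least 10 CPM in a group, by the root mean square difference in log2(CPM + 0.5) after centring on the control mean. The nearest were Cmbl (0.674), Mamdc2 (0.761), Rgs18 (0.772), Tmem273 (1.09) and Sh2d1b1 (1.10). They were abundant in controls and low in ox-LDL libraries, as the search required. Mamdc2 had 92.3 to 136 CPM in control and 0.538 to 11.7 in ox-LDL libraries, Rgs18 had 20.2 to 77.2 and 0.179 to 4.52, and Cmbl had 14.2 to 44.0 and 0 to 2.39. Matk itself had 45.5 to 65.5 CPM in control and 0.488 to 1.65 in ox-LDL libraries.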

How the data were processed

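RNA of peritoneal macrophages was sequenced on the BGISEQ-500 platform. Per the methods and the submitters' processing notes, the authors checked reads with FastQC, aligned them to mm9 (HISAT2 2.0.5), and then used SAMtools 1.4 for sorting and StringTie 1.3.3.13 for assembly. The deposited table holds estimated counts per gene, not normalized, of which 13.6% were not whole. The step that made the counts is not given in the sources used here. The other value deposited for each gene in each library has no named unit, and is taken as FPKM made by the authors from the count, the gene length and the library total. The length it implies was constant over libraries (median coefficient of variation 1.36% over 8192 genes).

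The 9788 rows of circular RNAs (1.44% to 2.24% of counts) were left out. Of the others, 22818 were paired with a symbol through RefSeq (GRCm38.p6), which gave names but no positions. Counts were rounded, filtered by filterByExpr, TMM-normalized and tested with edgeR 4.0.16 (quasi-likelihood, robust) in R 4.3.3, with Benjamini-Hochberg adjustment over 12654 genes and a threshold of 0.01. Genes under test varied by a common biological coefficient of variation of 37.3%. Ratios between genes used FPKM. Positions came from GENCODE vM1 on NCBIM37. Genes named from the pathway lists were those called with an absolute log2 fold change above 1, at most 4 each way per list, with Blk and the 5 genes nearest to Matk. The marker lists covered macrophages, resident macrophages, T, NK, B, mast and dendritic cells, eosinophils, neutrophils, megakaryocytes and mesothelial or stromal cells. Values of a few genes are left out here, also from the counts and sums over lists. The 8 genes, the lists and the tests were chosen with earlier results of these data known.

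The alternatives were DESeq2 1.42.0, limma-voom (limma 3.58.1), other scalings, filters and thresholds, limma on log2(FPKM + 1) and log2(FPKM + 0.1) where 5 or more libraries reached an FPKM of 1, removal of each library's length trend, a replicate block and each library left out. On simulated data with 200 changed genes among 12654, edgeR recovered 110 of 110 at a log2 fold change of 2 and 63 of 90 at 1, with 4 false calls. The simulated libraries varied less than the real ones and had no length trend. Recovery and false calls in the real data cannot be read from these numbers. No pair of libraries agreed within sampling noise.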

Additional observations from a re-analysis of the deposited data

Results flagged for a closer look

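In 5 of the 22 groups of 5 libraries examined for the kinase genes and their ratios, 1 library stood apart from the rest by Dixon's test at the 95% level, where chance gives about 1 in 20 groups, or 1.1 here. In the control group this was replicate 5 each time. It had 82.7 CPM of Csk, against 61.9 in the next library, 79.8 CPM of Fgr, against 55.9, and a Csk to Matk ratio of 1.20, against 0.674. In the ox-LDL group replicate 5 had 88.4 CPM of Fgr, against 37.5 in the next library. Ox-LDL replicate 2 had 0 CPM of Yes1, against 0.670. These flags cover 3 libraries, and what sets those libraries apart was not tested.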

How the results depend on the processing

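Over 23 alternative settings and 23 single genes with a test, 484 of 520 values kept their direction and their side of the threshold, 30 lost the call, 6 gained it and 0 reversed. Most of these genes were followed because the main fit called them or because they ran like Matk. The total therefore follows in part from that choice and is no measure of stability over all genes. The Src call held in all 23, with log2 fold changes from 2.66, on log2(FPKM + 1), to 4.24, and adjusted p from 4.48e-26 to 2.38e-04. Matk ranged from -6.26 to -4.63, the latter on log2(FPKM + 1). Csk gained the call under DESeq2 (adjusted p = 6.95e-04), upper-quartile factors (0.00694), the length trend removed (0.00193), without ox-LDL replicate 2 and without both doubted libraries. Its adjusted p reached 0.0608 with library size alone, and the cause was not tested. Library size alone moved the median log2 fold change of all genes from 0.10 to -0.09.

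Genes called higher over all genes were 704 with library size alone, and 570 and 553 by limma on log2(FPKM + 1) and log2(FPKM + 0.1). Genes called lower were 1244 by DESeq2 and 1216 with the length trend removed. At an adjusted p below 0.05, 2045 were higher and 1320 lower. Without control replicate 5 and ox-LDL replicate 2, an alternative chosen after the data were seen, 1843 were higher and 1483 lower. The number of kinase genes called lower other than Matk went from 0 to 1 under DESeq2, upper-quartile factors, the length trend removed, an adjusted p below 0.05 and without those 2 libraries. In the pathway lists, 11 were higher and 13 lower by DESeq2, 7 and 16 with the length trend removed, 13 and 14 without the 2 libraries, and 14 and 13 at an adjusted p below 0.05. Leaving out each library gave 826 to 1755 genes called higher, 436 to 1502 lower, 0 to 1 kinase genes lower, 4 to 13 pathway genes higher and 5 to 15 lower, where the highest came without ox-LDL replicate 2, and 436 and 437 without control replicate 4 and ox-LDL replicate 3. The log2 difference of the Src family over Csk and Matk was 1.88, was 1.76 to 1.95 without single libraries and 1.64 on plain CPM not divided by length.

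Replicate numbers are shared between groups, and no source used here says whether they pair the samples. The correlations of same-numbered deviations were 0.03, -0.22, 0.40, -0.24 and 0.39, and 1 of 5 numbers matched itself best. These values differ between numbers and cannot settle whether the samples are paired. With the replicate number as a block, 885 genes were higher and 549 lower, 1 kinase gene was higher and 0 lower, and 3 and 8 pathway genes were called. The block gave a log2 fold change of -6.02 for Matk, 3.93 for Src and -0.83 for Csk, and Pag1 lost its call (adjusted p = 0.0105). Low depth limits Lck, Yes1 and the ox-LDL values of Matk, with at most 38 reads per library.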
